A study of Mus musculus with 24 samples.

Results

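Messenger RNA of 10 secreted immune signals was followed in cultured mouse pancreatic ductal adenocarcinoma (PDAC) cells in which p53 was silenced, restored or introduced. The genes encode the CXC chemokines Cxcl1, Cxcl2 and Cxcl5, the CX3C chemokine Cx3cl1, the CC chemokines Ccl2 and Ccl20, the cytokines Lif, Csf1 and Il18, and complement component C3. They were chosen by name with earlier results of these data known, as 10 of the 55401 genes in each count table. Shares called among them are therefore a description. Of the 10, 8 had enough reads to be tested in KPsh cells, 9 in KPnull cells and 6 in the cells edited at Pcyt2.

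The data are RNA-seq counts from 24 libraries of PDAC lines grown on collagen-coated plates. In KPsh cells, as the study is known to have built them, doxycycline drives a hairpin that silences Trp53, and removing the drug lets p53 return. One set compared KPsh cells on the drug (1 µg/ml) with KPsh cells off it after 10 days, with n = 3 libraries each. KPnull cells, described as a p53-ON system, carried vector, p53WT, or p53 mutated in its first (TAD1m), second (TAD2m) or both (TAD12m) transactivation domains, with n = 2 each. The growth protocol gives all KPnull cells, vector included, 48 hours of doxycycline before harvest, although the series text mentions both states. Taken as in the protocol, this set holds no cells without the drug, whereas in the KPsh cells the drug and the loss of p53 go together. The last set was KPsh cells with a guide against Pcyt2, an enzyme of phosphatidylethanolamine synthesis (sgPcyt2), and the same cells given a guide-resistant Pcyt2 cDNA, each on or off doxycycline for 6 days, with n = 2 each. All 4 of those groups carried the guide, so none was an unedited control. Whether a line was a single clone, and whether replicates were separate cultures, is not stated in the labels, so the p-values speak only of how these libraries vary, and that variation may be technical.

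Chemokines are small secreted proteins that draw leukocytes along a gradient through receptors on those cells. Cxcl1, Cxcl2 and Cxcl5 act on Cxcr2 of neutrophils, Ccl2 on Ccr2 of monocytes, Ccl20 on Ccr6 of lymphocytes and dendritic cells, and Cx3cl1, which is made as a membrane-anchored protein and shed by Adam10 and Adam17, on Cx3cr1. Csf1 keeps macrophages alive through Csf1r, Lif signals through Lifr and gp130 (Il6st) to Stat3, Il18 is made as a precursor that caspase-1 cuts, and C3 is the protein on which the complement pathways converge. In pancreatic tumours such signals from the cancer cells are known to shape the immune infiltrate, and NF-kB is a well-known activator of many of these genes.

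The promoters of the genes called between p53WT and vector are shown first, since many of the results turn on these genes. Promoter sequences from 250 bases before to 50 after the transcription start were matched for 8 of the 10 genes in RefSeq on GRCm38.p6, and the 7 of them called in that comparison are printed 5′ to 3′ on the gene's own strand. Capitals mark matches, on either strand, to an NF-kB pattern (GGG and CC with any 5 bases between them) or an AP-1 pattern (TGANTCA), and neighbouring matches that overlap form 1 stretch of capitals. Ccl20 (chr1:83116516-83116815, plus strand), C3 (chr17:57228087-57228386, minus strand), Lif (chr11:4257318-4257617, plus strand), Csf1 (chr3:107760420-107760719, minus strand) and Il18 (chr9:50554450-50554749, plus strand) were higher with p53WT than with vector. Cxcl2 (chr5:90903649-90903948, plus strand) and Cx3cl1 (chr8:94771930-94772229, plus strand) were lower, and the windows of Il18 and Cx3cl1 hold no capitals.
Ccl20: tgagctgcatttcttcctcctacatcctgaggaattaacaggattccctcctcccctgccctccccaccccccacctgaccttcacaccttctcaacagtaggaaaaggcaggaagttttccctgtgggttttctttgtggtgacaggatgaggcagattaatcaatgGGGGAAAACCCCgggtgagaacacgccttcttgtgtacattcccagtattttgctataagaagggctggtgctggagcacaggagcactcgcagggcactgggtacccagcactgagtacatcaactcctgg
C3: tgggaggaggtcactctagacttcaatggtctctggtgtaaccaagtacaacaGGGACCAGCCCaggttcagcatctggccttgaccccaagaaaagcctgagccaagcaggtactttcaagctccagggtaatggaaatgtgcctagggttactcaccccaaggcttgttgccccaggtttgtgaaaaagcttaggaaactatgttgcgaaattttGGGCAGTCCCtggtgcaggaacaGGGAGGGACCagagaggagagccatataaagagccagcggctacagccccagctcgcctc
Lif: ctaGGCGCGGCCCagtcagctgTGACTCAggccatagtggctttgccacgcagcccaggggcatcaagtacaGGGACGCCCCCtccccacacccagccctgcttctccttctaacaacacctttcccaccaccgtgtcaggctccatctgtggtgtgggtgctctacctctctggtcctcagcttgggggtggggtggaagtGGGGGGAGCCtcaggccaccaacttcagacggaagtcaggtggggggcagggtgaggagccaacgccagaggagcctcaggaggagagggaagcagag
Csf1: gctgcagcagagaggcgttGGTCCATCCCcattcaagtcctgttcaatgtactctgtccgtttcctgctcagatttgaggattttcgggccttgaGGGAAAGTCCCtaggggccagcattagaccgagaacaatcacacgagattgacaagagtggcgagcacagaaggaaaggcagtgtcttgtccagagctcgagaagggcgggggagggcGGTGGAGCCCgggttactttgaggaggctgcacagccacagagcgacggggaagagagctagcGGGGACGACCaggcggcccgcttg
Il18: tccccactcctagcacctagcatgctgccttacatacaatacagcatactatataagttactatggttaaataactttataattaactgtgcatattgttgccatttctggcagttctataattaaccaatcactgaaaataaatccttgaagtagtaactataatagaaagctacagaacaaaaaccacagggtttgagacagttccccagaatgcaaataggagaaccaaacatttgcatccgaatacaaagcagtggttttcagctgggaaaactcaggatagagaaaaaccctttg
Cxcl2: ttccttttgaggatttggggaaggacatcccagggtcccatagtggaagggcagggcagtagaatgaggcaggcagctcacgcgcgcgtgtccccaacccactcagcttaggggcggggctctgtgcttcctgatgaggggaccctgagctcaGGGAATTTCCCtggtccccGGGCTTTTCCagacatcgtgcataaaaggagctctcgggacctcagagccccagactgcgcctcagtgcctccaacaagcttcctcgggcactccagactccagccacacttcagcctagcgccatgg
Cx3cl1: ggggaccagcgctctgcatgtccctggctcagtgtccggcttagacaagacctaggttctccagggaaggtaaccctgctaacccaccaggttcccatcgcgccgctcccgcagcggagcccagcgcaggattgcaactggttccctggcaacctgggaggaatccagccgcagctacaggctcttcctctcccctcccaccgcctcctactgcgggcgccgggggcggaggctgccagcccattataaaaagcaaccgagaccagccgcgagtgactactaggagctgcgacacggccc

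The capitals in Ccl20 are a single stretch from position -82 to -71, with 0 as the first transcribed base. In Cxcl2 they are 2 stretches, from -97 to -87 and from -78 to -69. In Lif the AP-1 match lies from -228 to -222, and the other capitals are NF-kB matches. The NF-kB pattern occurred in 6 of the 8 promoters (Cxcl1, Cxcl2, Ccl20, Lif, Csf1 and C3) and in 50.8% of 32851 mouse promoters of the same length. The AP-1 pattern occurred in 1 of the 8, Lif, and in 7.8% of all promoters. A STAT pattern (TTCNNNGAA, in 8.3% of all promoters), a p53 half-site (in 8.4%) and a full p53 site (in 0.1%) were in none of the 8 windows.

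On mm10, Cxcl5 (chromosome 5, 90759360 to 90761624), Cxcl1 (90891243 to 90893113) and Cxcl2 (90903873 to 90905938) lie close together on the plus strand. Cx3cl1 spans 94772009 to 94782427 on chromosome 8, Ccl2 82035571 to 82037453 and Lif 4257557 to 4272514 on chromosome 11, and Ccl20 83116766 to 83119166 on chromosome 1. Csf1 (chromosome 3, 107741048 to 107760469) and C3 (chromosome 17, 57203970 to 57228136) are on the minus strand. For Il18 on chromosome 9 the transcript counted runs from 50565374 to 50581837 and starts inside the annotated gene, which begins at 50554827. The Il18 window printed above (50554450 to 50554749) lies near that gene start and not at the start of the transcript counted. Counts are over the exons, untranslated parts included, of 1 transcript per gene, and no exon base of the 10 genes overlaps another annotated gene. Cxcl1 and Cxcl2 are close paralogs, so how reads that fit both were shared is uncertain.

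Library totals ran from 9398977 to 12988762 in the KPsh set, from 13662715 to 19436728 in the KPnull set and from 13806378 to 17132699 in the Pcyt2 set. Levels are in CPM, read counts scaled to a common library size, given as mean ± SD. Trp53 stood at 21.1 ± 0.721 CPM on and 258 ± 5.85 CPM off doxycycline in KPsh cells (n = 3 each). It stood at 5.33 ± 1.12 CPM with vector and at 527 to 668 CPM (group means) with the 4 p53 forms. In the Pcyt2 set it was lower off the drug than in KPsh cells, at 41.9 ± 0.317 CPM in sgPcyt2 cells and 92.0 ± 7.36 CPM with the cDNA (n = 2 each). The summed level of the ductal epithelial markers (7 genes) was 5006 to 13002 CPM, led by keratins, whereas Epcam was at most 1.38 CPM in every library. Myeloid and lymphoid markers (10 genes) summed to 6.07 to 22.0 CPM, most of it Csf1r, with Adgre1 at 0 in every library. Fibroblast markers (8 genes) summed to at most 9.45 CPM with Col1a2, Dcn and Lum at 0, endothelial markers (5 genes) to at most 8.27 CPM, and acinar markers (5 genes) to at most 4.80 CPM with Cpa1 and Amy2a2 at 0.

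The set of signals expressed differed between the lines. KPnull cells held high Cxcl5 and Ccl20. KPsh cells held mainly Cx3cl1, Csf1 and Cxcl5 on doxycycline and Csf1, Lif and Cx3cl1 off it. The Pcyt2-edited KPsh cells held mainly Cx3cl1, Lif and Csf1 on doxycycline and Cx3cl1, Lif and Il18 off it. Per kilobase of the counted transcript, the level in TAD2m cells was 210 CPM per kb for Cxcl5, 181 for Ccl20 and 35.4 for Csf1, and no other gene exceeded 13.2. In KPsh cells on doxycycline the same scale gave 13.9 for Cx3cl1, 11 for Csf1, 10.1 for Cxcl5 and 4.81 for Lif. Off the drug Csf1 led with 19.6, followed by Lif with 13.4 and Cx3cl1 with 12. The sgPcyt2 cells off the drug had 26.4 for Cx3cl1, 15.5 for Il18 and 11.9 for Lif. Cxcl2 and Ccl2 had no read in any of the 8 libraries of the Pcyt2 set, which allows up to 0.0959 to 0.104 CPM per group (3 counts over the group, counting error only), and Ccl20 reached at most 0.200 CPM and C3 0.0667 CPM there. The 3 tables were scaled separately, so levels set across them are a description without a test. The edited cells on doxycycline also differed from unedited KPsh cells on it in Cxcl5, at 0.272 and 0.316 CPM in sgPcyt2 cells and 0.588 and 1.30 CPM with the cDNA against 17.8 to 19.6 CPM.

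**Figure D1:**
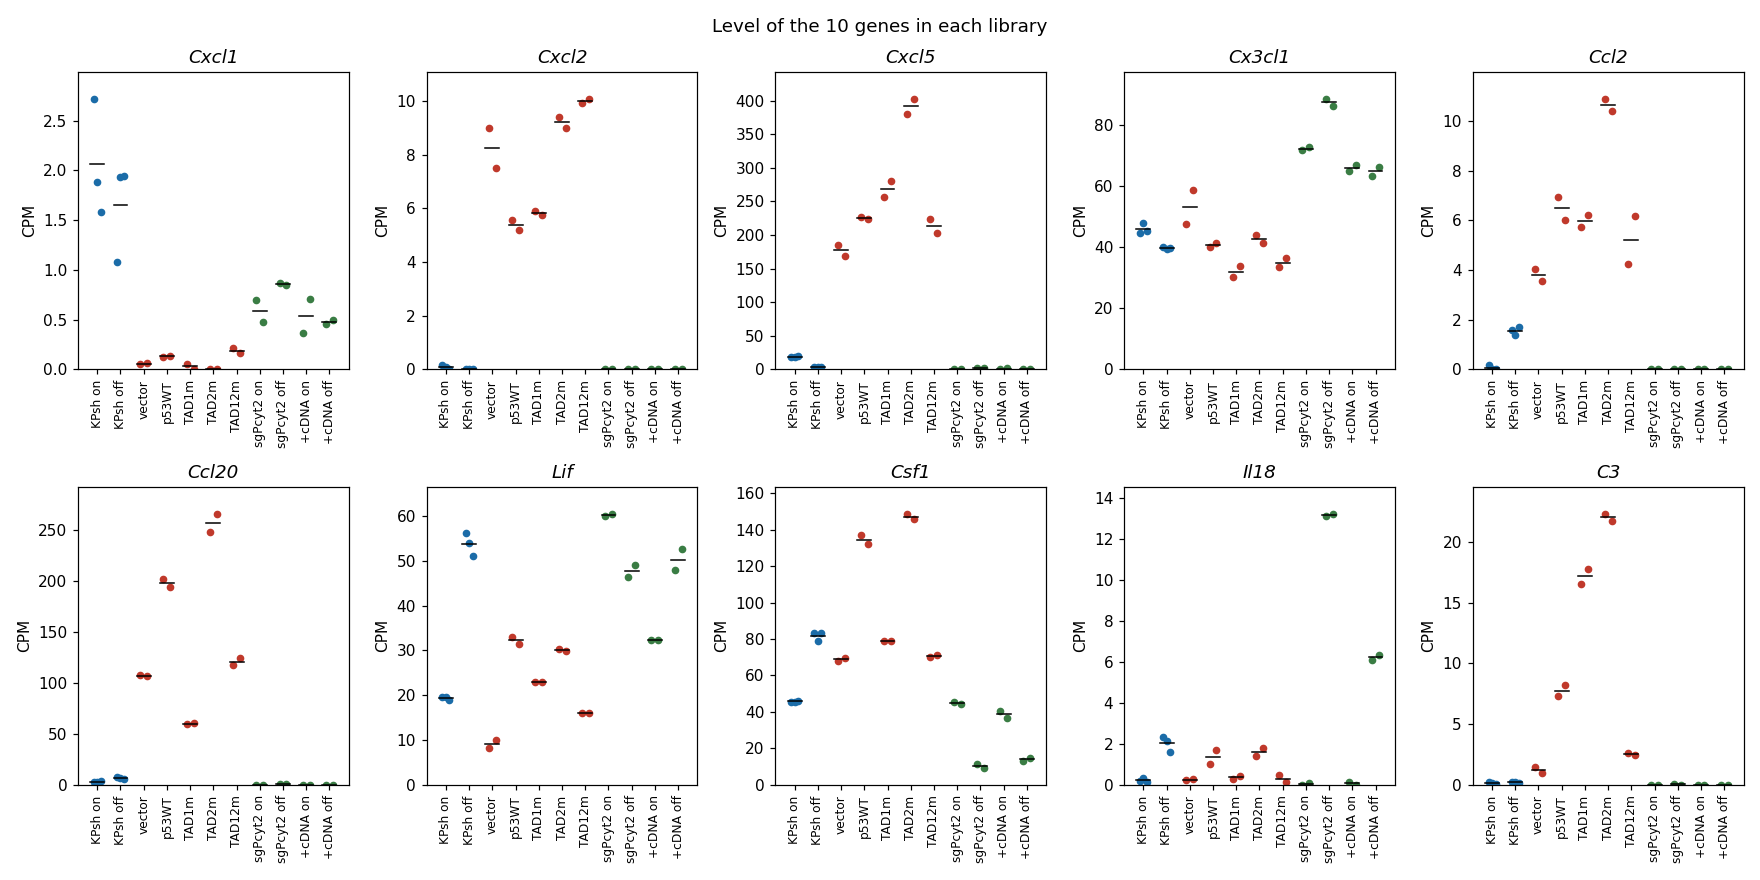
Level of each gene in CPM (y axis, its own linear scale per gene from 0) in the 11 groups (x axis); points are libraries, black lines group means, blue the KPsh set, red the KPnull set and green the Pcyt2 set, where "+cDNA" is sgPcyt2 with the Pcyt2 cDNA. Cxcl5, Ccl20, Ccl2 and C3 stand highest in TAD2m cells, Il18 in sgPcyt2 cells off doxycycline, and Csf1 falls below 15 CPM only in the Pcyt2 set off doxycycline.

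Withdrawing doxycycline from KPsh cells for 10 days asked what the return of p53 does. Lif, Csf1, Ccl20, Ccl2 and Il18 rose, Cxcl5 and, slightly, Cx3cl1 fell, and Cxcl1 did not pass the test. In these bulk libraries fewer expressing cells and less RNA per cell cannot be told apart. The criterion for a call was an adjusted p below 0.05 in edgeR's quasi-likelihood test, with adjustment over all 13990 genes tested. Of the 8 genes tested, 5 were called higher and 2 lower, and over all genes 33.1% were called higher and 31.7% lower (64.8% in all). With a change of at least 2-fold also required, 4 were higher and 1 lower, where 10.5% and 4.63% of all genes were. The median log2 change was 1.04 over the 8 genes and 0.007 over all genes tested.

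Among the neutrophil chemokines, Cxcl5 stood at 18.7, 17.8 and 19.6 CPM on doxycycline and at 3.13, 2.77 and 3.13 CPM off it. The groups were far apart, and Cxcl5 fell by 2.64 ± 0.14 (log2 change with its standard error, adjusted p = 4.72e-13). Cxcl1 stood at 2.72, 1.88 and 1.59 CPM on the drug and 1.08, 1.94 and 1.94 CPM off it. Its libraries overlapped, with a change of -0.31 ± 0.29 (adjusted p = 0.371). Cxcl2 was too low to test, at 3 reads in all on the drug and 0 off it.

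Cx3cl1 was 44.7, 47.8 and 45.3 CPM on the drug and 40.1, 39.4 and 39.7 CPM off it. The groups did not overlap, but the difference was small and fell by 0.21 ± 0.07 on the log2 scale (adjusted p = 0.017). Without the second library on doxycycline it did not pass (-0.19, adjusted p = 0.0591). Of its sheddases, Adam17 fell by 0.40 ± 0.07 (adjusted p = 1.81e-05) and Adam10 fell by 0.21 ± 0.06 (adjusted p = 0.00539).

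Ccl2, the monocyte attractant, had 2 reads over the 3 libraries on doxycycline and 51 over those off it, or 0.160, 0 and 0 CPM against 1.56, 1.38 and 1.69 CPM. Every library off the drug lay above every library on it, and the ratio of summed reads was 27.4 (95% exact interval 7.20 to 232, counting error only; adjusted p = 9.09e-07). The fitted change depends on the first library on the drug, as the only one with a read (log2 4.53 with it, 7.12 without it). Ccl20 was 2.56, 2.30 and 3.25 CPM on the drug and 7.14, 6.54 and 5.75 CPM off it. Again the groups did not overlap, and it rose by 1.24 ± 0.19 (adjusted p = 8.33e-06).

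Lif, a cytokine of the IL-6 family, measured 19.6, 19.5 and 18.9 CPM on the drug and 56.2, 54.0 and 51.2 CPM off it. It rose by 1.48 ± 0.08 (adjusted p = 6.55e-13), with little spread within either group. Its receptor chain Lifr moved the other way, from 15.9 ± 1.12 to 3.61 ± 0.745 CPM (n = 3 each; log2 -2.14 ± 0.16, adjusted p = 6.72e-11). The shared chain gp130 (Il6st) fell by 0.54 ± 0.08 (adjusted p = 2.31e-06). Csf1, the macrophage growth factor, stood at 45.5, 45.4 and 46.1 CPM on the drug and 83.0, 79.1 and 83.0 CPM off it. All 3 libraries off the drug were higher, and Csf1 rose by 0.84 ± 0.07 (adjusted p = 2.34e-10). Il18 was 0.160, 0.313 and 0.151 CPM on the drug and 2.35, 2.12 and 1.61 CPM off it. The groups did not overlap, although the level stayed low, and 66 reads against 7 gave a ratio of 10.1 (95% exact interval 4.65 to 26.2, counting error only; adjusted p = 5.54e-07). Il18rap, an accessory chain of its receptor, rose by 2.86 ± 0.17 (adjusted p = 1.44e-12), but with p53WT in KPnull cells it did not pass (0.10 ± 0.08, adjusted p = 0.333). C3 was too low to test, at 5 reads on and 6 off the drug. The summed ductal marker level, led by keratins, was 6796 to 7092 CPM on the drug and 12321 to 13002 CPM off it. Krt7, Krt8, Krt18, Krt19 and Sox9 rose, whereas Cdh1 fell by 0.14 ± 0.05 (adjusted p = 0.025). Endothelial markers summed to 0.227 to 0.731 CPM on and 2.79 to 3.23 CPM off the drug, most of the latter Cdh5 (mean 2.37 CPM). The part of these markers in the result was not tested.

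Other genes of the same pathways, from lists made with earlier results of these data known, were also called in KPsh cells. Of 10 other cytokines tested, 8 rose and 0 fell. They included the stress cytokine Gdf15 (log2 3.16 ± 0.19), the second Csf1r ligand Il34 (2.22 ± 0.20) and osteopontin (Spp1, 1.45 ± 0.06). Of 6 other chemokines 4 rose and 1 fell, and Cxcl16 rose by 1.11 ± 0.18. Of 13 other complement genes 6 rose and 0 fell, among them the complement inhibitors Cd55 (2.98 ± 0.10) and clusterin (Clu, 1.14 ± 0.05) and the lectin pathway protease Masp1 (2.30 ± 0.07). Of 18 NF-kB factors and feedback genes 9 rose and 2 fell, with Ikbke at 2.47 ± 0.10, the inhibitor Tnfaip3 at 1.55 ± 0.07 and Relb at 1.20 ± 0.17. Of 12 genes of LIF signalling 7 rose and 2 fell, with Cish at 2.09 ± 0.19, Junb at 1.12 ± 0.09 and Pim1 at 0.96 ± 0.11. Those counts stand beside 33.1% and 31.7% of all genes called in each direction.

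Introducing p53WT into KPnull cells put the same question in cells taken as all on doxycycline. C3, Il18, Lif, Csf1, Ccl20, Ccl2 and, by less, Cxcl5 rose, and Cxcl2 and Cx3cl1 fell. Of the 9 genes tested, 7 were called higher and 2 lower, beside 25.5% and 25.1% of the 15075 genes tested (50.6% in all). At 2-fold or more, 3 were higher and 0 lower, against 7.36% and 2.89% of all genes. The median log2 change was 0.89 over the 9 genes and -0.007 over all genes tested.

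Cxcl5 was 185 and 169 CPM with vector and 227 and 224 CPM with p53WT. Both p53WT libraries lay above both vector libraries, and it rose by 0.35 ± 0.07 (adjusted p = 0.000325), whereas in KPsh cells it fell off the drug. Cxcl2 was 8.98 and 7.49 CPM with vector and 5.57 and 5.19 CPM with p53WT. It fell by 0.62 ± 0.14 (adjusted p = 0.00146) without overlap. Cxcl1 had at most 4 reads in either of these groups and was not tested. Cx3cl1 went from 47.7 and 58.8 CPM to 40.1 and 41.3 CPM and fell by 0.38 ± 0.09 (adjusted p = 0.00268). The vector libraries were spread, and without the second of them the change was -0.23 (adjusted p = 0.0527).

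Ccl2 was 4.03 and 3.55 CPM with vector and 6.95 and 6.01 CPM with p53WT, a rise of 0.77 ± 0.19 (adjusted p = 0.00238). Ccl20 was 107 and 106 CPM with vector and 202 and 194 CPM with p53WT. It rose by 0.89 ± 0.06 (adjusted p = 2.34e-09), from a level far above that of KPsh cells. Lif was 8.17 and 9.99 CPM with vector and 33.1 and 31.4 CPM with p53WT. Its rise of 1.84 ± 0.10 (adjusted p = 3.44e-10) was not accompanied by a called change of Lifr (log2 0.04 ± 0.25, adjusted p = 0.907). Csf1 was 68.1 and 69.5 CPM with vector and 137 and 132 CPM with p53WT, and it rose by 0.97 ± 0.06 (adjusted p = 7e-10). Il18 was 0.204 and 0.263 CPM with vector and 1.00 and 1.71 CPM with p53WT. It stayed low in both, and 41 reads against 8 gave a ratio of 5.83 (95% exact interval 2.70 to 14.4, counting error only; adjusted p = 0.000698). C3, the hub of complement, was 1.48 and 0.986 CPM with vector and 7.33 and 8.20 CPM with p53WT. It rose by 2.61 ± 0.19 (adjusted p = 8.63e-09), the highest log2 change among the 9 genes. Ductal markers summed to 5477 to 5895 CPM with vector and 7854 to 8377 CPM with p53WT. Krt7, Krt18 and Krt19 rose, whereas Cdh1 fell by 0.34 ± 0.05 (adjusted p = 3.14e-05) and Sox9 did not pass (-0.003, adjusted p = 0.995). The part of these markers in the changes was not tested.

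**Figure D2:**
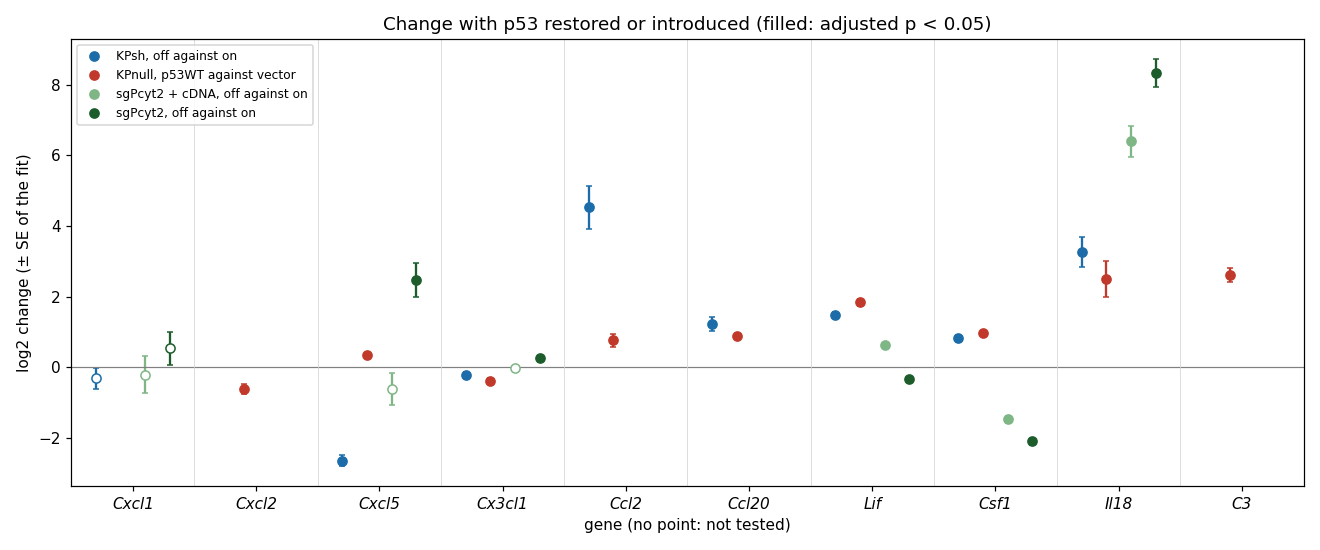
Log2 change of each gene (y axis, points with bars of ± SE of the fit) when p53 returned in KPsh cells (blue), was introduced into KPnull cells (red), or when doxycycline was withdrawn from sgPcyt2 cells with (light green) or without (dark green) the Pcyt2 cDNA; filled points passed an adjusted p of 0.05. Lif and Csf1 are higher in the blue and red comparisons, and Csf1 is lower in both green ones; the Il18 points of the green comparisons rest on 1 and 2 reads in the groups on doxycycline, so their height is no bound.

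Related genes were also called in KPnull cells, beside 25.5% of all genes called higher and 25.1% lower with p53WT. Of 13 other cytokines tested 8 rose and 2 fell, with Il34 at a log2 change of 1.29 ± 0.16, the IL-6 family member Clcf1 at 0.85 ± 0.08 and Spp1 at 0.59 ± 0.06. Of 8 other chemokines 3 rose and 1 fell. Cxcl16 rose by 1.71 ± 0.07 and the neutrophil chemokine Ppbp, which like Cxcl5 acts on Cxcr2, by 1.69 ± 0.21. Of 13 other complement genes 5 rose and 0 fell, with Cd55 at 4.06 ± 0.18, Masp1 at 1.83 ± 0.07 and Clu at 1.77 ± 0.06. NF-kB genes were called higher for 8 and lower for 2 of 20, with Ikbke at 1.29 ± 0.09, Tnfaip3 at 1.25 ± 0.06 and Tnip1 at 0.60 ± 0.09. Genes of LIF signalling were called higher for 5 and lower for 1 of 12, with Cish at 2.09 ± 0.23, Tyk2 at 0.62 ± 0.09 and Pim1 at 0.46 ± 0.09. In the receptor list, which also holds the scavenging receptor Ackr3, 1 of 8 rose and 1 fell, the latter Il6st by 0.15 ± 0.06 (adjusted p = 0.0476). Among genes of processing and inhibition 0 of 6 rose and 1 fell, Adam17 by 0.30 ± 0.07.

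Mutating the transactivation domains asked which of them each gene needs. Ccl20, Csf1, Il18, Lif and Cx3cl1 were lower with TAD1m than with p53WT, and C3 and Cxcl5 were higher. With TAD2m, C3, Cxcl5, Cxcl2 and Ccl20 were higher than with p53WT. With TAD12m, Lif, C3 and Cxcl5 were still higher and Cx3cl1 lower than with vector. As a check of the labels, Cdkn1a, the cell-cycle inhibitor p21 and a p53 target, was 380 ± 30.6 CPM in p53WT and 295 ± 6.24 CPM in TAD2m cells, but 53.5 ± 1.33 CPM in TAD1m, 43.1 ± 6.25 CPM in vector and 32.6 ± 0.00247 CPM in TAD12m cells (n = 2 each). All 5 groups share the fit, and comparisons with vector or with p53WT share those libraries. Trp53 RNA was lower with TAD2m than with p53WT (-0.34 ± 0.06, adjusted p = 0.0242). It was also lower with TAD12m (-0.24 ± 0.06, adjusted p = 0.00438), and with TAD1m it did not pass (-0.07, adjusted p = 0.448). The part of the Trp53 level in the differences from p53WT was not tested. Ductal markers summed to 7877 to 8209 CPM with TAD2m, 5140 to 5237 CPM with TAD1m and 5006 to 5696 CPM with TAD12m, beside the sums given for p53WT and vector, and their part in the results was not tested.

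C3 had the widest range. It stood at 16.6 and 17.8 CPM with TAD1m, 22.3 and 21.8 CPM with TAD2m, and 2.58 and 2.45 CPM with TAD12m. The order was TAD2m, TAD1m, p53WT, TAD12m and vector, with no overlap between neighbours. Against p53WT, C3 was higher with TAD1m by 1.15 ± 0.12 (adjusted p = 1.57e-06) and with TAD2m by 1.51 ± 0.12 (adjusted p = 8.47e-06). It was lower with TAD12m (-1.62 ± 0.16, adjusted p = 4.16e-07). Against vector it rose by 0.99 ± 0.23 with TAD12m (adjusted p = 0.0196), and that call was lost without the first (adjusted p = 0.0813) or second (0.0555) TAD12m library or the second vector library (0.164).

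Cxcl5 stood at 257 and 280 CPM with TAD1m, 380 and 402 CPM with TAD2m, and 223 and 203 CPM with TAD12m. TAD2m was highest, and vector the lowest group. The TAD2m level was above that of p53WT by 0.80 ± 0.07 (adjusted p = 8.47e-06) and above vector by 1.14 ± 0.07 (adjusted p = 6e-10). TAD1m was above p53WT by 0.25 ± 0.07 (adjusted p = 0.00584), and without its second library that difference was 0.19 (adjusted p = 0.101). With TAD12m Cxcl5 was above vector by 0.27 ± 0.07 (adjusted p = 0.0305). Leaving out the first TAD12m library (adjusted p = 0.165), the second vector library (0.222), or a TAD1m or TAD2m library (0.0504 to 0.057) ended that call.

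Ccl20 is the ligand of Ccr6. It stood at 59.3 and 60.1 CPM with TAD1m, 247 and 265 CPM with TAD2m, and 117 and 124 CPM with TAD12m. TAD1m cells had the lowest and TAD2m cells the highest level, with no overlap. TAD1m was below vector (-0.84 ± 0.06, adjusted p = 1.92e-08) and below p53WT (-1.73 ± 0.06, adjusted p = 4.4e-12). TAD2m was above vector by 1.26 ± 0.06 (adjusted p = 4.04e-11), and TAD12m did not pass against it (0.18, adjusted p = 0.132). TAD2m was above p53WT by 0.37 ± 0.06 (adjusted p = 0.00491), a call lost without the second TAD2m library (0.236) or the first (0.0545) or second (0.106) p53WT library.

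Csf1 was 78.9 and 79.0 CPM with TAD1m, 149 and 146 CPM with TAD2m, and 70.2 and 71.1 CPM with TAD12m. It fell into a high pair of groups, p53WT and TAD2m, and a low set of TAD1m, TAD12m and vector. Against p53WT it was lower with TAD1m (-0.77 ± 0.06, adjusted p = 2.15e-08) and TAD12m (-0.93 ± 0.06, adjusted p = 1.07e-09), and with TAD2m the difference of 0.13 did not pass (adjusted p = 0.792). TAD1m was above vector by 0.20 ± 0.06 (adjusted p = 0.0129), and this call was lost without the first (0.0667) or second (0.0732) TAD1m library or the first vector library (0.0912). TAD12m against vector was 0.04 (adjusted p = 0.903).

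Lif was graded. It was 22.8 and 22.9 CPM with TAD1m, 30.3 and 29.9 CPM with TAD2m, and 16.1 and 15.9 CPM with TAD12m. From high to low the groups ran p53WT, TAD2m, TAD1m, TAD12m and vector, without overlap between neighbours, but TAD2m and p53WT did not differ by the test (-0.10, adjusted p = 0.921). All 4 forms were above vector, by 1.34 ± 0.10 for TAD1m (adjusted p = 4.39e-08), 1.74 ± 0.10 for TAD2m (adjusted p = 8.28e-10) and 0.83 ± 0.11 for TAD12m (adjusted p = 0.000224), beside the 1.84 of p53WT. Against p53WT, TAD1m was lower (-0.50 ± 0.09, adjusted p = 0.000361), as was TAD12m (-1.01 ± 0.09, adjusted p = 1.53e-07).

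Il18 stayed under 2 CPM in every KPnull library. It was 0.289 and 0.444 CPM with TAD1m, 1.39 and 1.80 CPM with TAD2m, and 0.475 and 0.109 CPM with TAD12m. Only p53WT and TAD2m stood above the rest, and TAD2m differed from vector with 44 reads against 8, a ratio of 6.89 (95% exact interval 3.21 to 16.9, counting error only; adjusted p = 0.000275). Against p53WT it was lower with TAD12m (-2.16 ± 0.48, adjusted p = 0.00134; -3.53 without the first TAD12m library) and with TAD1m (-1.86 ± 0.48, adjusted p = 0.00507). The TAD1m call was lost without the first TAD1m library (0.0666) or the second p53WT library (0.0733).

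Ccl2 was 5.72 and 6.22 CPM with TAD1m, 10.9 and 10.4 CPM with TAD2m, and 4.22 and 6.16 CPM with TAD12m. TAD2m lay above every other library, 1.48 ± 0.17 above vector (adjusted p = 2.57e-06). Its difference from p53WT, 0.71 ± 0.16, did not pass (adjusted p = 0.108), but passed with no filter on low counts (0.00167) or without the first (0.0191) or second (0.0194) TAD12m library. TAD1m was above vector by 0.64 ± 0.19 (adjusted p = 0.0121), and this call was lost in DESeq2 (0.056) and without the second TAD1m (0.0865) or second vector (0.0598) library. TAD12m did not pass against vector (0.44, adjusted p = 0.298) or p53WT (-0.33, adjusted p = 0.131), and without its second library the latter passed (-0.62, adjusted p = 0.0108).

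Cxcl2 was 5.90 and 5.77 CPM with TAD1m, 9.42 and 8.98 CPM with TAD2m, and 9.91 and 10.1 CPM with TAD12m. Levels with p53WT and TAD1m were below the other 3 groups. TAD12m was above p53WT by 0.89 ± 0.14 (adjusted p = 4.19e-05), and against vector neither TAD2m (0.15, adjusted p = 0.366) nor TAD12m (0.27, adjusted p = 0.367) passed. TAD1m was below vector (-0.51 ± 0.14, adjusted p = 0.00815), and TAD2m above p53WT by 0.77 ± 0.14 (adjusted p = 0.0245). The TAD1m call was lost in DESeq2 (0.0839) and without the second TAD1m (0.0565) or first vector (0.121) library, and the TAD2m call in DESeq2 (0.235) and without any 1 of the TAD1m, TAD2m or p53WT libraries (0.0656 to 0.403).

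Cx3cl1 was 30.4 and 33.7 CPM with TAD1m, 43.9 and 41.3 CPM with TAD2m, and 33.4 and 36.4 CPM with TAD12m. Vector stood above all 4 forms. The log2 change against vector was -0.73 ± 0.10 for TAD1m (adjusted p = 1.7e-05), -0.32 ± 0.09 for TAD2m (adjusted p = 0.0105) and -0.61 ± 0.09 for TAD12m (adjusted p = 0.001). The TAD2m call was lost without the second TAD2m (0.0905) or second vector (0.172) library. TAD1m was below p53WT (-0.34 ± 0.10, adjusted p = 0.0103), a call lost without the first TAD1m (0.127) or second p53WT (0.0647) library. TAD12m against p53WT lay at the threshold (-0.22 ± 0.10, adjusted p = 0.0667). It passed with DESeq2's size factors (0.0457), no filter (0.0353) or a replicate block (0.0494), and without the second TAD12m (0.0489) or the first (0.0272) or second (0.0278) vector library.

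Counted over the 9 genes tested, 5 were called higher and 3 lower with TAD1m than with vector, beside 19% and 17.5% of all genes (36.4% in all). For TAD2m 7 were higher and 1 lower, beside 24.9% and 24.2% (49.1% in all), and for TAD12m 3 were higher and 1 lower, beside 2% and 1.85% (3.85% in all). At 2-fold or more against vector, TAD2m had 7 of 9 higher (7.32% of all genes), TAD1m 2 of 9 (5.05%) and TAD12m 0 of 9 (0.378%). Against p53WT, TAD1m had 2 higher and 5 lower, beside 20.4% and 18.7% of all genes (39.1% in all), and TAD12m 1 higher and 5 lower, beside 25.5% and 25.6% (51.2% in all). TAD2m differed from p53WT at only 43 genes, 0.285% of those tested, of which 4 were Cxcl2, Cxcl5, Ccl20 and C3, all higher with TAD2m as were 0.199% of the genes tested. Since the 10 genes were proposed with results of these data in view, those 4 do not show by themselves that such genes are singled out. Trp53 was also among the 43 genes, lower with TAD2m.

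**Figure D3:**
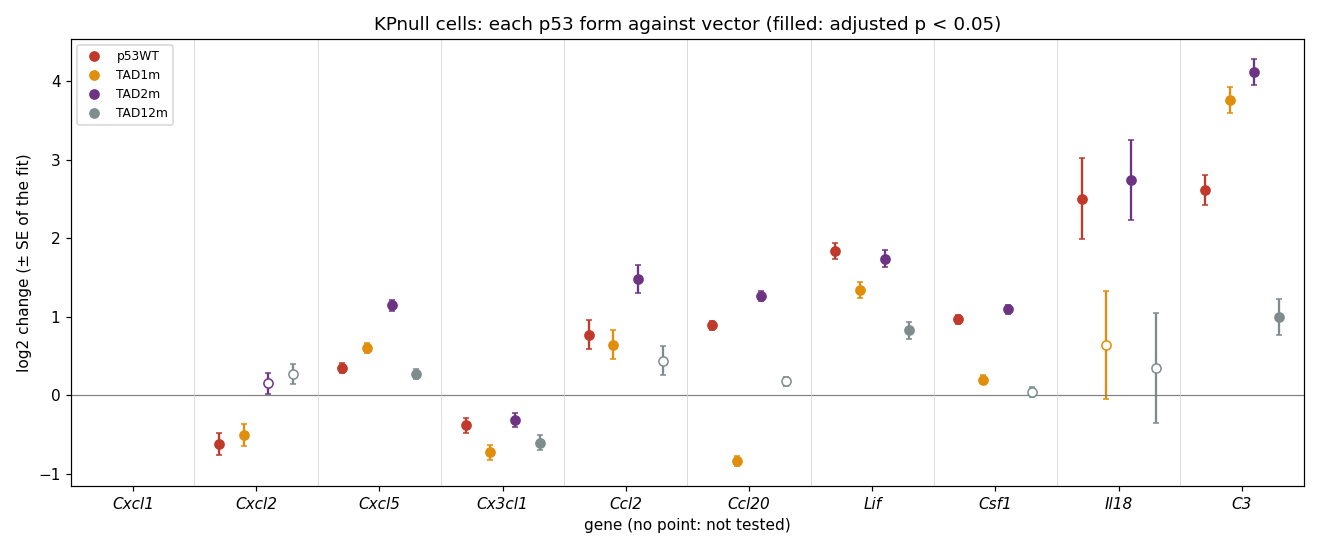
Log2 change of each gene against vector (y axis, points with bars of ± SE of the fit) for p53WT (red), TAD1m (orange), TAD2m (purple) and TAD12m (grey) in KPnull cells; filled points passed an adjusted p of 0.05, and Cxcl1 was not tested. Ccl20 with TAD1m is the only one of the 4 forms' Ccl20 points below 0, at -0.84, and C3 with TAD2m is the highest point, at 4.12.

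Withdrawing doxycycline from Pcyt2-edited KPsh cells asked whether loss of the enzyme alters the response to p53. Il18 rose from nearly no reads with and without the Pcyt2 cDNA, and Csf1 fell in both. Lif and Cxcl5 responded differently in the 2 settings. Of the 6 genes tested in sgPcyt2 cells 3 were called higher and 2 lower off the drug, beside 39.2% and 37.1% of the 14916 genes tested (76.3% in all). With the cDNA 2 were higher and 1 lower, beside 37.3% and 36.3% (73.5% in all). The median log2 change over the 6 genes was 0.41 without and -0.12 with the cDNA, and 0.02 over all genes in each.

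The 2 arms of this set also differed in Pcyt2 and in the return of p53. Pcyt2 stood at 28.5 ± 0.101 CPM on and 19.5 ± 2.55 CPM off the drug in sgPcyt2 cells, each with n = 2. With the cDNA it was 2588 and 2636 CPM on and 2193 and 2202 CPM off the drug. Unedited KPsh cells had 109 ± 4.51 and 86.3 ± 3.46 CPM (n = 3 each), so the cDNA gave a level far above theirs. Trp53 rose by 1.00 ± 0.08 without and by 2.21 ± 0.07 with the cDNA (difference -1.21 ± 0.12, adjusted p = 9.66e-12), and the response of Cdkn1a was also smaller without it (difference -0.94 ± 0.07, adjusted p = 6.32e-16). Differences between the arms in the response of the 10 genes stand beside this unequal return of p53, and its part in them was not tested. Ductal markers summed to 6346 to 6425 CPM on and 10236 to 10942 CPM off the drug in sgPcyt2 cells, and to 7498 to 7504 and 11392 to 11432 CPM with the cDNA. Endothelial markers, nearly all Cdh5, summed to 2.24 to 2.78 and 6.67 to 8.27 CPM, and to 0.662 to 0.826 and 6.67 to 7.22 CPM with the cDNA. The part of these markers in the results was not tested.

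Il18 was 0 and 0.0680 CPM in sgPcyt2 cells on the drug and 13.1 and 13.2 CPM off it. With the cDNA it was 0.147 and 0 CPM on the drug and 6.08 and 6.35 CPM off it. The ratio of summed reads was 402 without the cDNA (384 reads against 1, 95% exact interval 71.8 to 15929) and 95 with it (195 against 2, 25.9 to 790), counting error only (adjusted p = 1.21e-23 and 5.15e-18). Off the drug Il18 was higher without the cDNA by 1.08 ± 0.15 on the log2 scale (adjusted p = 8.63e-08). The difference between the 2 responses could not be resolved from so few reads on the drug (1.93 ± 1.58, adjusted p = 0.413). The pore protein Gsdmd, cut by inflammatory caspases, rose by 0.69 ± 0.05 without (adjusted p = 3.79e-16) and by 0.19 ± 0.05 with the cDNA (adjusted p = 0.0011).

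Csf1 was 45.2 and 44.2 CPM in sgPcyt2 cells on the drug and 11.5 and 9.33 CPM off it. With the cDNA it was 40.6 and 36.8 CPM on the drug and 13.1 and 14.7 CPM off it. Both off groups were far below both on groups, the opposite of unedited KPsh cells. Csf1 fell by 2.10 ± 0.10 without (adjusted p = 5.98e-24) and by 1.47 ± 0.09 with the cDNA (adjusted p = 5.92e-19), and the responses differed (-0.62 ± 0.14, adjusted p = 0.000648). On the drug the 2 cell types differed by 0.21 ± 0.08 (adjusted p = 0.0455). That call was lost in DESeq2 (0.266), with a replicate block (0.0604) and without the second cDNA library (0.439) or the first (0.181) or second (0.0952) sgPcyt2 library on the drug. Off the drug Csf1 was lower without the cDNA (-0.41 ± 0.12, adjusted p = 0.00603), a call lost without the second cDNA (0.0953) or second sgPcyt2 (0.127) library off it. Its receptor Csf1r fell by 0.84 ± 0.15 in sgPcyt2 cells (adjusted p = 2.13e-06) and did not pass with the cDNA (-0.10, adjusted p = 0.54). The edited cells were off the drug for 6 days, unedited KPsh cells for 10, and their Trp53 off the drug was 41.9 to 92.0 CPM (group means) against 258 CPM. Time, editing and p53 level therefore cannot be told apart in this contrast between the sets.

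Lif was 60.0 and 60.4 CPM in sgPcyt2 cells on the drug and 46.5 and 49.1 CPM off it. With the cDNA it was 32.4 and 32.3 CPM on the drug and 47.9 and 52.5 CPM off it. The level on the drug was higher without the cDNA, and the levels off it overlapped. Lif fell by 0.33 ± 0.06 without (adjusted p = 8.46e-06) and rose by 0.63 ± 0.07 with the cDNA (adjusted p = 2.69e-11). The difference between the responses was -0.97 ± 0.09 (adjusted p = 1.57e-11). On the drug Lif was higher without the cDNA by 0.90 ± 0.07 (adjusted p = 1.03e-14), and off it the difference of -0.07 did not pass (adjusted p = 0.43). Il6st, the chain through which Lif signals, rose by 0.78 ± 0.06 in sgPcyt2 cells (adjusted p = 6.25e-16). With the cDNA Il6st was 51.2 CPM on and 51.9 CPM off the drug (group means). Group means of Lifr were 2.31 CPM on and 1.71 CPM off the drug in sgPcyt2 cells, and 1.30 and 0.384 CPM with the cDNA.

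Cx3cl1 was 71.8 and 72.7 CPM in sgPcyt2 cells on the drug and 88.6 and 86.4 CPM off it, against 65.1 and 66.9 CPM on and 63.5 and 66.3 CPM off with the cDNA. Cells lacking the cDNA had the highest level once off the drug. It rose by 0.28 ± 0.05 there (adjusted p = 1.4e-05) and did not pass with the cDNA (-0.03, adjusted p = 0.699), and the responses differed by 0.30 ± 0.08 (adjusted p = 0.0028). Off the drug it was 0.43 ± 0.05 higher without the cDNA (adjusted p = 1.36e-08). On the drug the difference of 0.13 did not pass (adjusted p = 0.108), and passed at 0.15 without either sgPcyt2 library off the drug (0.0445 and 0.0444).

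Cxcl5 was low in this set. It measured 0.316 and 0.272 CPM in sgPcyt2 cells on the drug and 1.93 and 1.41 CPM off it, and 0.588 and 1.30 CPM on and 0.523 and 0.747 CPM off with the cDNA. In sgPcyt2 cells the groups did not overlap, and 49 reads against 9 gave a ratio of 5.70 (95% exact interval 2.77 to 13.2, counting error only; adjusted p = 8.56e-06). With the cDNA they overlapped and the change did not pass (-0.61, adjusted p = 0.21), and the responses differed by 3.09 ± 0.66 (adjusted p = 0.000278). On the drug Cxcl5 was lower without the cDNA (-1.70 ± 0.53, adjusted p = 0.0174), and DESeq2 gave no adjusted p for this difference. Cxcl5 lost this call without the second cDNA library on the drug (-0.98) or the first (-1.82) or second (-1.61) sgPcyt2 library on it. Off the drug it was higher by 1.39 ± 0.40 (adjusted p = 0.00505), and this call was lost in DESeq2 (0.106) and without the first cDNA (0.0723) or first sgPcyt2 (0.106) library off it. Cxcl1 lay between 0.368 and 0.867 CPM in the 8 libraries, and neither its change without (0.54, adjusted p = 0.289) nor with the cDNA (-0.21, adjusted p = 0.726) passed.

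Between sgPcyt2 cells and those with the cDNA, 2 of 6 genes were called higher and 1 lower on the drug, beside 8.4% and 10% of all genes (18.4% in all). Off the drug 3 were higher and 1 lower, beside 16.3% and 16.8% (33.1% in all). For the difference between the responses 4 of 6 passed, 2 in each direction, beside 12.8% higher and 12.4% lower (25.2% in all). Related genes in sgPcyt2 cells off against on the drug moved in large numbers, as did all genes. Of 13 other complement genes 8 rose and 2 fell, with Cd55 at 3.46 ± 0.10, factor B (Cfb) at 1.87 ± 0.10 and Clu at 1.57 ± 0.04. Of 10 other cytokines 3 rose and 6 fell, with Spp1 at -1.52 ± 0.06 and Mif at -1.12 ± 0.06. Of 6 other chemokines 5 rose and 1 fell, and Ccl25 rose by 0.51 ± 0.16. NF-kB genes were called higher for 7 and lower for 6 of 17, with Ikbke at 3.25 ± 0.15, Relb at 1.92 ± 0.15 and Cebpb at 0.97 ± 0.14. Genes of LIF signalling were called higher for 7 and lower for 3 of 12, with Pim3 at -1.96 ± 0.06, Tyk2 at 0.86 ± 0.07 and Bcl6 at 0.83 ± 0.14. Among 5 genes of processing and inhibition 3 rose and 1 fell, with Adam10 at 0.55 ± 0.04 and Adam17 at -0.55 ± 0.06. Among 6 genes of the receptor list, Ackr3 included, 2 rose and 3 fell.

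**Figure D4:**
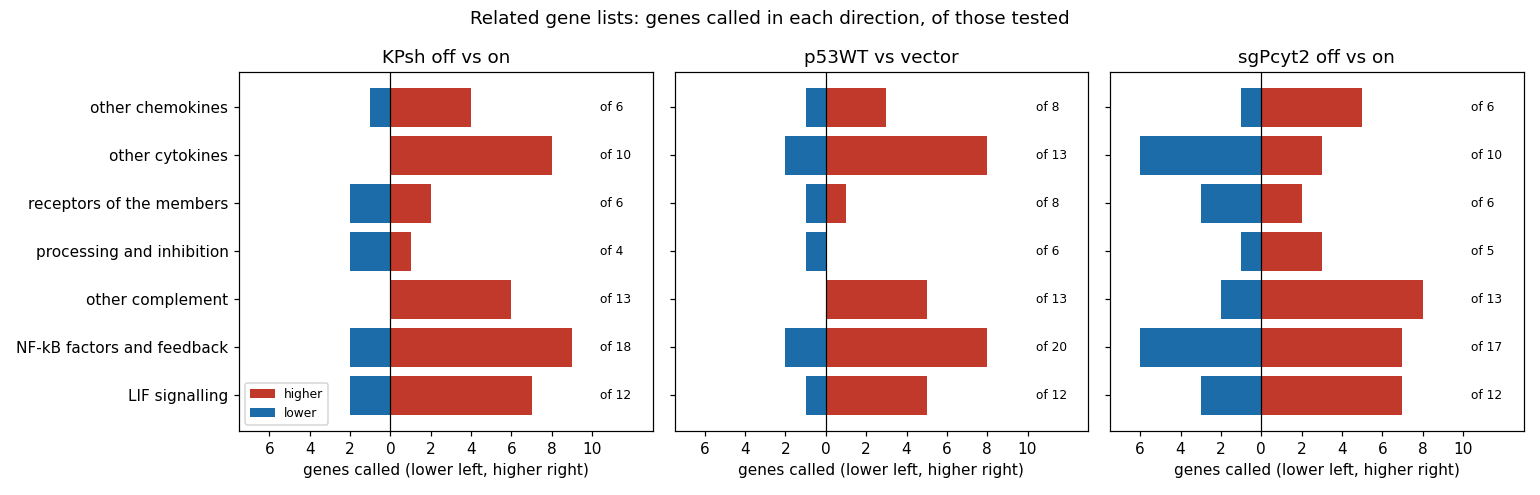
Number of genes called (x axis, lower to the left and higher to the right, with the number tested at the edge) in the 7 related lists (y axis) for KPsh off against on doxycycline, p53WT against vector, and sgPcyt2 off against on doxycycline. Other cytokines have 8 higher and 0 lower in KPsh cells, and 3 higher and 6 lower in sgPcyt2 cells.

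Receptors of the chemokines were nearly absent from these cultures. Cxcr1, Ccr6, C5ar1, Ackr1 and Ackr2 had no reads in any group, and group means were at most 0.14 CPM for Cxcr2, 0.03 CPM for Ccr2 and 0.24 CPM for Cx3cr1. Group means were 44.4 to 104 CPM for Il6st and at least 5.53 CPM for Csf1r. Lifr was 15.9 CPM in KPsh cells on doxycycline and between 0.384 and 3.61 CPM in the other groups. Il18r1, the ligand-binding chain of the Il18 receptor, had no reads in KPsh cells on the drug or in the 4 groups of the Pcyt2 set and at most 1.52 CPM elsewhere. Group means of its accessory chain Il18rap ranged from 0.442 to 36 CPM. Off the drug Il18rap was higher in KPsh cells (2.32 CPM on, 16.7 off). It was lower off the drug in sgPcyt2 cells (5.41 on, 0.516 off) and with the cDNA (1.13 on, 0.442 off), where Il18 rose. C3ar1, the receptor for the C3a fragment, had group means of 1.1 to 9.18 CPM, and the scavenging chemokine receptor Ackr3 of 0.10 to 39.4 CPM.

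Genes with the most similar profile were sought among 10767 genes by Pearson's r of log2 CPM group means, centred within each table, over the 11 groups. The means share libraries and scaling, so r is a description. In the Pcyt2 set Cxcl2 and Ccl2 had no reads, C3 at most 1 and Ccl20 at most 5 per group. Their r therefore rests mainly on the other sets, and for Cxcl2 and C3, too low to test in KPsh cells, mainly on the KPnull groups. Il18 had 1 and 2 reads on and 384 and 195 reads off the drug in the Pcyt2 set, so its r rests mainly on that set. The closest to Csf1 were Mtmr14 (r = 0.982), Tinagl1 (0.978) and Rnf39 (0.976), and to Il18 Pex26 (0.998), Cystm1 (0.995) and Slc38a9 (0.995). For Ccl20 they were Xbp1 (0.966), Zfp322a (0.934) and Phospho2 (0.931), and for Lif Ranbp9 (0.962), Marchf5 (0.961) and Fn1 (0.955). C3 was closest to Rassf8 (0.952), Rlf (0.949) and Diaph2 (0.937), Ccl2 to Pigf (0.951), Clca3a1 (0.938) and Clic1 (0.929), and Cxcl5 to Gpatch1 (0.935). Cx3cl1 and Cxcl2 had looser partners, led by E130308A19Rik (0.911) and Gm15446 (0.84).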

How the data were processed

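RNA from 24 samples of mouse PDAC lines was made into stranded poly(A) libraries, per the labels' protocols. The authors deposited estimated counts per gene, in steps of 0.5 and without normalization, in 3 tables. The submitters' processing notes name STAR 2.6.1c and HOMER. Per the file headers, HOMER counted both strands over exons of 1 GENCODE vM25 transcript per gene on mm10, so opposite-strand reads are not separated. Columns of the KPsh cells off doxycycline and of the cells with the Pcyt2 cDNA were matched to samples by elimination, and the KPnull cells were taken as all on doxycycline, as in the growth protocol, although the series text mentions both states.

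Counts were rounded (0.5 upwards), which changed library totals by at most 0.0533%. Between replicates of a group, all 15 pairs varied beyond counting noise (chi-square per degree of freedom 1.71 to 6.97). Within each table genes passing edgeR's filterByExpr (13990, 15075 and 14916 in the KPsh, KPnull and Pcyt2 sets) were scaled by TMM and tested with the quasi-likelihood test (R 4.3.3 with edgeR 4.0.16 and limma 3.58.1; robust fits, Benjamini-Hochberg over all genes tested, call at 0.05). Groups of a table share 1 estimate of the spread (4, 5 and 4 residual degrees of freedom), and SE is the value the test implies. Ratios of reads carry exact 95% intervals that cover counting error only. Alternatives were DESeq2's size factors, DESeq2 1.42.0, no filter, a replicate block and leaving out each library. The genes named are the 10 signals, checks of the labels (Trp53, Cdkn1a, Pcyt2), up to 3 called genes of at least 5 CPM with the largest log2 change per related list, receptors, and the 3 closest profiles. A gene chosen by this rule is not reported here. The 10 genes, the lists and the promoter patterns were chosen with earlier results of these data known. Coordinates are from the files' headers and GENCODE vM21, also on mm10.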

Additional observations from a re-analysis of the deposited data

Results flagged for a closer look

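The response to withdrawing doxycycline differed between sgPcyt2 cells and those with the Pcyt2 cDNA, by the interaction term of edgeR's quasi-likelihood test, for 4 genes: Csf1 (-0.62 on the log2 scale, sgPcyt2 minus cDNA), Cxcl5 (3.09), Cx3cl1 (0.30) and Lif (-0.97). Trp53 itself rose less without the cDNA (difference -1.21), and its part in these differences was not tested. The same 4 genes moved in opposite directions in different sets, and those differences were not tested, since the sets are in separate tables. Cxcl5 changed by -2.64 in KPsh cells off doxycycline, 0.35 with p53WT in KPnull cells and 2.48 in sgPcyt2 cells off the drug. Cx3cl1 changed by -0.21 and -0.38 in the first 2 of these and by 0.28 in sgPcyt2 cells. Lif changed by 1.48 and 1.84, and by -0.33 in sgPcyt2 cells. Csf1 changed by 0.84 and 0.97, by -2.10 in sgPcyt2 cells and by -1.47 with the cDNA. Line, time off the drug (10 and 6 days) and Trp53 level differ together between the sets and cannot be told apart.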

How the results depend on the processing

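No called change of the 10 genes reversed under any alternative run, and all directions given for the 10 genes were the same with TMM and DESeq2's size factors. DESeq2 lowered the number of all genes called from 3759 to 2426 for the difference between responses, from 4944 to 3116 for sgPcyt2 against cDNA off the drug and from 2746 to 1572 on it, where it left 1 of the 3 calls among the 10 genes. In that last comparison DESeq2 gave no adjusted p for Cxcl5. With no filter the genes differing between TAD2m and p53WT went from 43 to 107. Leaving out a library gave 345 to 524 genes called for TAD12m against vector (580 with all), 3623 to 6008 for TAD1m against vector (5494), 13 to 69 for TAD2m against p53WT (43) and 1663 to 2886 for sgPcyt2 against cDNA on the drug (2746). The calls among the 10 genes were then 2 to 4 (4 with all), 5 to 8 (8), 2 to 5 (4) and 1 to 4 (3). The causes were not tested. Calls that ended are given beside each result. Same-numbered libraries did not consistently deviate together (correlations from -0.204 to 0.354), so numbers were not taken as pairs. The highest value, 0.354, was between TAD12m and vector libraries. A replicate block kept every count of calls within 1.5 times, for example 8665 genes in KPsh cells (9063 without it), lost the call of Csf1 for sgPcyt2 against cDNA on the drug (adjusted p = 0.0604) and gained that of Cx3cl1 for TAD12m against p53WT (0.0494). Low counts limit Cxcl1, Cxcl2 in KPsh cells, Il18 and, in the Pcyt2 set, Ccl2, Ccl20 and C3.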
